A study of Drosophila melanogaster with 9 samples.

Results

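The tetraspanin genes of *Drosophila melanogaster* were followed in BG3 cells and in wing imaginal discs, with the *Tsp42E* cluster of chromosome arm 2R set beside the other members of the family. Members were all genes whose symbol begins with *Tsp* and a number and that had a probe set naming no other gene. This gave 32 of the 11982 genes with such a probe set, 16 of them in the *Tsp42E* cluster and 16 elsewhere in the genome. The RefSeq annotation holds 34 genes of this naming. The remaining genes, *Tsp42Eb* and *Tsp66A*, are read only by probe sets shared with other genes and were not counted as members. Each member had 1 probe set.

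The 9 Affymetrix arrays formed 3 groups of 3. Ph RNAi arrays were made from BG3 cells that received 10 µg of double-stranded RNA per well against sequence shared by *ph-p* and *ph-d*, the genes for the PRC1 subunit Polyhomeotic, for 5 days. Wing disc arrays were made from late last-instar *yw* larvae of mixed sex, with 12 to 15 discs per replicate, and Mock RNAi arrays from BG3 cells to which the labels assign no dsRNA. BG3 cells are a male line that was derived from the central nervous system of larvae. A dsRNA with no target in the fly was not among the treatments, and a response to dsRNA itself and a response to loss of Ph cannot be told apart. *ph-p* and *ph-d* lacked a probe set with a name, and these arrays give no measure of the knockdown. The titles call the replicates biological but say nothing of separate cultures or dissections, and p-values therefore reflect only the scatter of these 3 arrays a group, which may be technical.

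Tetraspanins are small membrane proteins that cross the membrane several times and carry a large extracellular loop with a conserved cysteine motif. They bind one another and partners such as integrins and ADAM proteases in the plane of the membrane, and they sort proteins into endosomes, lysosomes and vesicles. In flies the *Tsp42E* genes stand in a row as tandem duplicates. The cluster also holds *lbm* (*late bloomer*), a tetraspanin gene under another name whose product lies on motor axons and promotes synapse formation. *Tsp42Ej*, or *sunglasses*, encodes a lysosomal tetraspanin that lowers rhodopsin in photoreceptors. Outside the cluster, *Tsp3A*, *Tsp26A* and *Tsp86D* are fly relatives of the mammalian tetraspanins that carry ADAM10 to the cell surface and promote Notch signalling, and *Tsp2A* builds the smooth septate junctions of the gut.

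All levels are log2 expression values, and the values of the arrays fell into a lower mode near the bottom of the scale and an upper mode. The boundary, taken as the point of lowest density between the modes, was 3.97 for the BG3 arrays and 2.9 for the wing disc arrays. A gene in the lower mode has little room to fall, and its value depends on the background correction. The medians over probe sets were 2.21 to 2.23 on the BG3 arrays and 0.827 to 0.842 on the wing disc arrays, which were therefore taken as normalized separately. Wing discs and BG3 cells were set side by side only as percentile ranks among the 11982 genes of each array. Probe sets differ in affinity, so that a rank places a signal on its array and does not order transcripts by abundance. Arrays correlated at 0.990 to 0.994 within Ph RNAi, 0.997 to 0.998 within wing disc and 0.992 to 0.997 within Mock RNAi. The cell line and tissue were checked against short marker lists. Of 6 glia markers 6 were in the upper mode in Ph RNAi and 5 in Mock RNAi, where *repo* was in the lower mode. In wing disc 4 of these glia markers were in the upper mode too, all but *repo* and *wrapper*. Of 4 neuron markers only *elav* was in the upper mode in BG3 cells, and *nSyb*, *brp* and *futsch* were not. The same held in wing disc, so neither the glia nor the neuron list is particular to BG3 cells. Of 6 hemocyte markers 3 were in the upper mode in Ph RNAi, 3 in Mock RNAi and 0 in wing disc. In wing discs *vg*, *nub* and *ap* were in the upper mode and *rn* was in the lower.

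A minority of the family gave a signal. In Ph RNAi 12 of 32 members lay in the upper mode, in wing disc 11 and in Mock RNAi 12 (37.5%, 34.4% and 37.5%, against 46.7%, 48% and 46.3% of all genes). The genes in the upper mode were identical in both BG3 groups, and 10 of them were in the upper mode in wing disc too. *Tsp42Ed* and *Tsp5D* were in the upper mode in BG3 cells and not in wing disc, and *Tsp74F* was in the upper mode only in wing disc. Of all 11982 genes 5047 were in the upper mode in every group, 370 only in both BG3 groups and 561 only in wing disc. In the cluster 5 of 16 members were in the upper mode in BG3 cells and 4 in wing disc, against 7 and 7 of the 16 other members. The 19 members in the lower mode in every group were *Tsp42Ec*, *Tsp42Eg* to *Tsp42Ek* and *Tsp42En* to *Tsp42Er* in the cluster and *Tsp2A*, *Tsp26A*, *Tsp29Fa*, *Tsp29Fb*, *Tsp33B*, *Tsp42A*, *Tsp47F* and *Tsp68C* outside it.

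**Figure D1:**
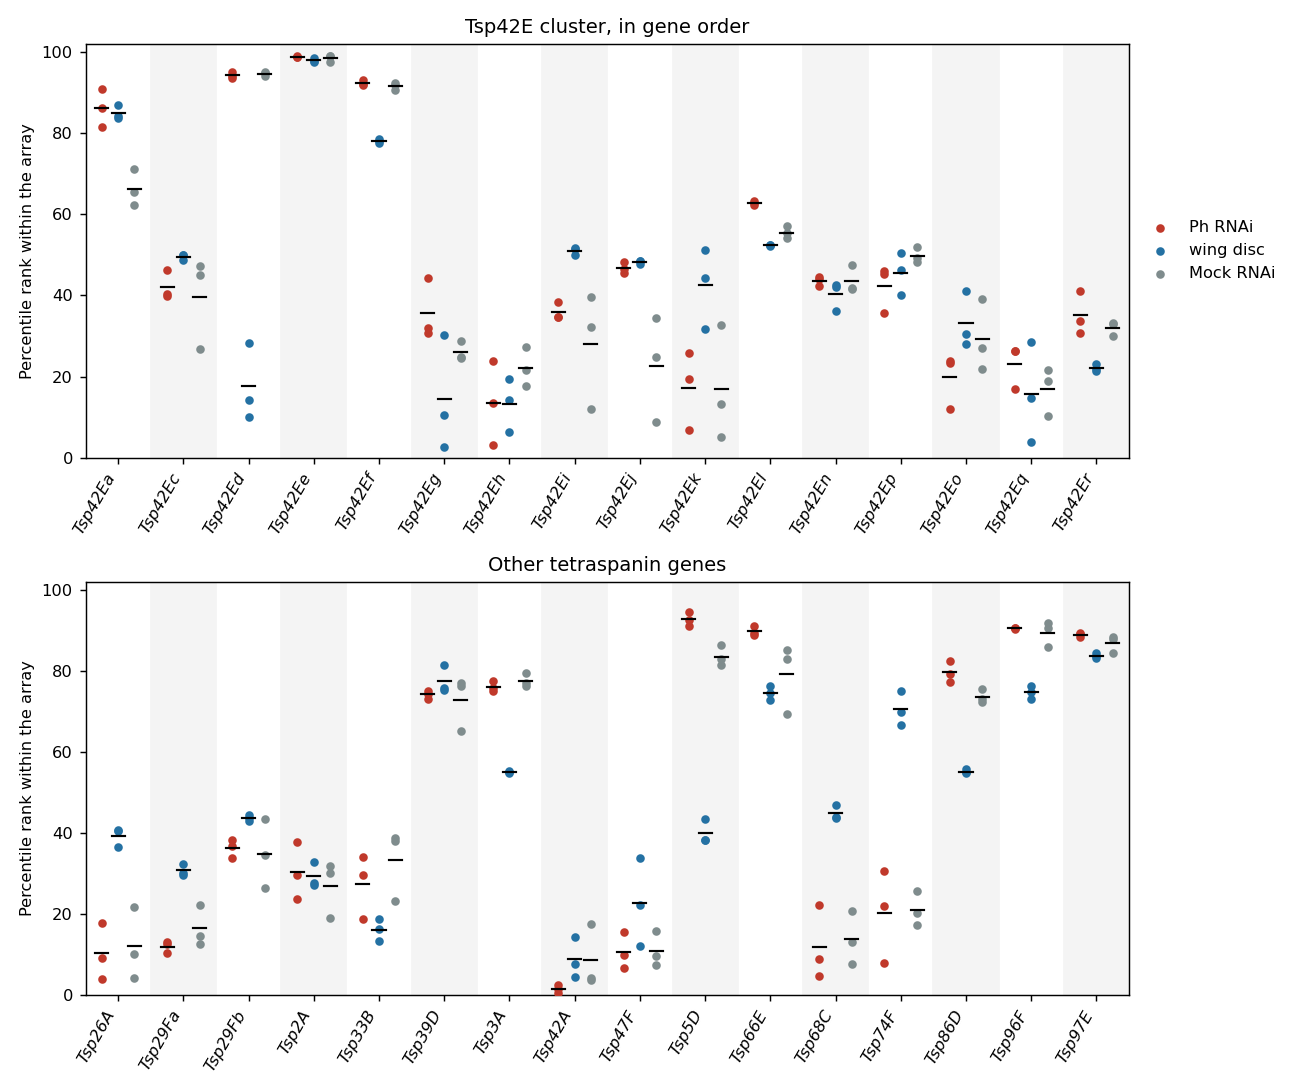
Percentile rank within the array (vertical axis, 0 to 100 over all 11982 genes) of the 32 tetraspanin genes, the *Tsp42E* cluster above in gene order and the other members below. Each point is 1 array of Ph RNAi, wing disc or Mock RNAi and each bar a mean of 3 arrays. *Tsp42Ed* sits near 94 in BG3 cells and under 29 in wing disc, and *Tsp74F* under 31 in BG3 cells and above 66 in wing disc.

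In Ph RNAi cells 4 tetraspanin genes were higher than in Mock RNAi cells, 3 of them in the cluster, and 0 were lower in the limma test. Among all genes 3.2% were called higher, 1.57% lower and 4.77% in either direction. The genes were *Tsp42Ea*, *Tsp42El* and *Tsp42Ej* in the cluster and *Tsp5D* on the X chromosome. By part, 3 of 16 cluster genes and 1 of 16 other members were higher, and whether the parts differ was not tested. Of the 12 members in the upper mode in BG3 cells 3 were higher, against 5.53% of all genes in the upper mode there, and 0 were lower, against 3.02%. At an unadjusted p under 0.05 were 8 of 32 members, against 16.5% of all genes, and besides the 4 called these were *Tsp66E* and *Tsp86D* with positive changes and *Tsp42Ep* and *Tsp42A* with negative ones. Ph RNAi and Mock RNAi arrays did not overlap for 9 members, against 23.5% of all genes.

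*Tsp42Ea*, the first gene of the cluster, had the largest change of the family. Its log2 values were 9.14, 10.43 and 9.7 in Ph RNAi, against 6.42, 7.89 and 6.94 in Mock RNAi. All 3 Ph RNAi arrays lay above the Mock RNAi arrays, and the mean was 9.76 ± 0.65 in Ph RNAi and 7.08 ± 0.75 in Mock RNAi (SD, n = 3 each). The increase was 6.39-fold (log2 change 2.67 ± 0.41, SE, adjusted p = 0.00272), and it was called in all 13 alternatives run, with adjusted p-values of 2.66e-06 to 0.0209. *Tsp42Ea* was well inside the upper mode in Mock RNAi, so that its fold does not start from the bottom of the scale. Its probe set is of the kind that can match more than 1 transcript, as are those of *Tsp29Fb*, *Tsp42Eh*, *Tsp66E* and *Tsp74F*. The annotation places *CG30159* and *Tsp42Eb* entirely within the span of *Tsp42Ea*. *CG30159*, which has a probe set of its own, was at 9.49 in Ph RNAi and 9.68 in Mock RNAi without passing the test (adjusted p = 0.733). The probe set shared by *Tsp42Eb* and *CG30160* had 1.61, 1.44 and 1.75 in Ph RNAi and 1.49, 1.59 and 1.54 in Mock RNAi, in the lower mode.

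*Tsp42El* was at 6.57, 6.19 and 6.5 in Ph RNAi, against 4.38, 5.05 and 4.13 in Mock RNAi. The groups did not overlap, and the Mock RNAi values stood just above the boundary of the modes. The gene was 3.72-fold higher (log2 change 1.9 ± 0.31, SE, adjusted p = 0.00473) and stayed called in all 13 alternatives, with adjusted p-values of 0.00146 to 0.0331. Next to it along the chromosome stands *lbm*, at 9.02, 8.9 and 8.6 in Ph RNAi and 8.11, 8.15 and 7.71 in Mock RNAi. These arrays did not overlap either, but *lbm* did not pass the test (log2 change 0.85 ± 0.23, SE, adjusted p = 0.0722). It passed in 2 of 13 alternatives, without the variance trend (0.0444) and among upper-mode genes only (0.0452).

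*Tsp42Ej* (*sunglasses*) was called without leaving the lower mode. It had 2.54, 2.48 and 2.75 in Ph RNAi and 1.61, 2.07 and 1.87 in Mock RNAi, which is 1.67-fold higher (log2 change 0.74 ± 0.16, SE, adjusted p = 0.0196). The groups did not overlap, but every value was below the boundary of 3.97, where a difference depends on the background correction. The call was kept in 9 of 12 alternatives and was lost when Ph RNAi replicate 3 (adjusted p = 0.0815), Mock RNAi replicate 1 (0.0628) or the third Mock RNAi array (0.0705) was left out, and the gene was not tested among upper-mode genes.

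The other cluster genes with a signal in BG3 cells did not change by a detectable amount. *Tsp42Ed* was at 10.96, 11.05 and 11.3 in Ph RNAi and 11.34, 11.23 and 11.04 in Mock RNAi (log2 change -0.1 ± 0.17, SE). *Tsp42Ee* was at 12.91, 12.9 and 12.99 in Ph RNAi and 12.25, 13.14 and 13.18 in Mock RNAi (0.07 ± 0.22), and *Tsp42Ef* at 10.66, 10.86 and 10.54 in Ph RNAi and 10.69, 10.37 and 10.61 in Mock RNAi (0.13 ± 0.17). The arrays of the groups overlapped for all 3 genes, and the signs of *Tsp42Ee* and *Tsp42Ef* turned with median centring (-0.11 and -0.06). The 10 further members of the cluster in the lower mode had log2 changes from -0.54 for *Tsp42Ep* to 0.23 for *Tsp42Eg*. *Tsp42Ep*, with 2.44, 2.51 and 2.09 in Ph RNAi and 3.18, 2.86 and 2.62 in Mock RNAi, had the lowest change of the family and did not pass the test (adjusted p = 0.18). The annotation places *Tsp42Eo* entirely within *Tsp42Ep*.

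**Figure D2:**
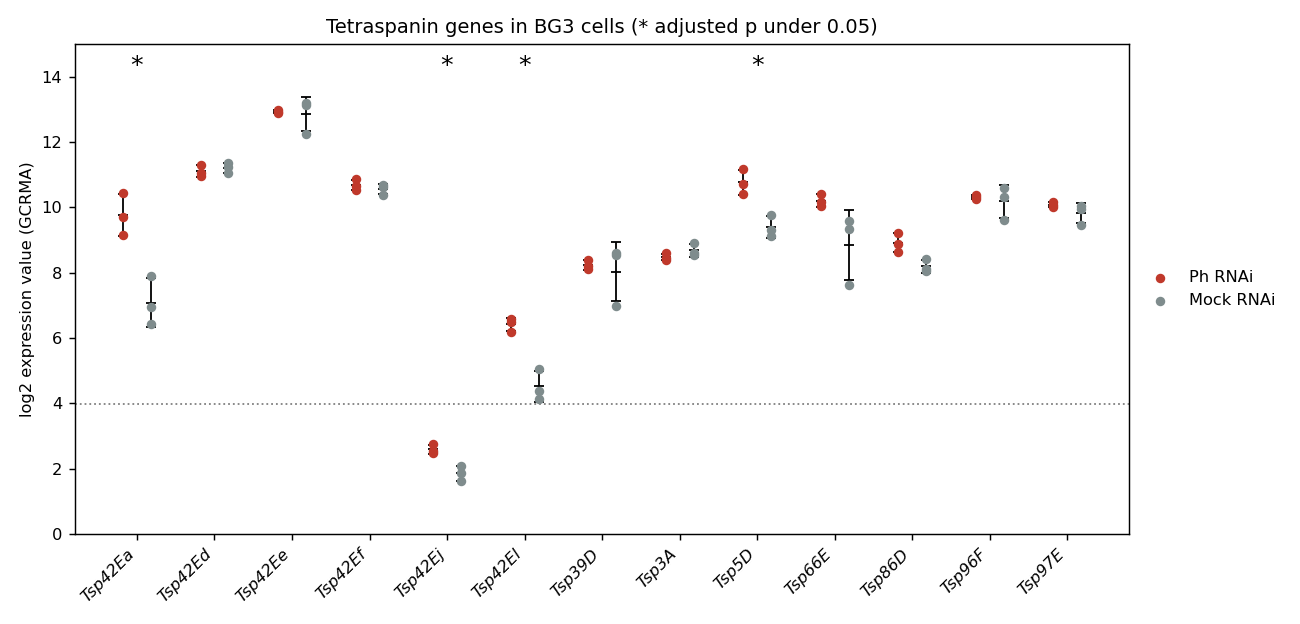
log2 expression values (vertical axis) of the 12 tetraspanin genes in the upper mode in BG3 cells and of *Tsp42Ej*, for 3 Ph RNAi and 3 Mock RNAi arrays, with mean and SD. The dotted line is the boundary of the modes at 3.97 and a star marks an adjusted p under 0.05, which *Tsp42Ea*, *Tsp42Ej*, *Tsp42El* and *Tsp5D* reached.

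Read along the chromosome, the called genes of the cluster were not contiguous. Between *Tsp42Ea* and *Tsp42Ej* lay 7 measured tetraspanin genes without a call, among them *Tsp42Ed*, *Tsp42Ee* and *Tsp42Ef* with strong signals, and *Tsp42Ek* lay between *Tsp42Ej* and *Tsp42El* with a log2 change of 0.005 ± 0.14 (SE). Of the 5 protein-coding genes on the *Tsp42Ea* side of the cluster and the 5 on the *Tsp42Er* side, all 10 were measured and limma called none, over all genes or at an unadjusted p under 0.05. The same held for *CG30159* and *Pgant3*, the measured genes inside the cluster that are not tetraspanins. The log2 changes of the flanking genes ran from -0.25 for *esn* to 0.18 for *CG30156*. The median change was 0.08 over the cluster, 0.001 over the other members and -0.03 over all genes. Most members of both parts were in the lower mode. Among genes in the upper mode in BG3 cells the medians were 0.13 for the cluster, 0.27 for the other members and -0.1 for all. Positive changes were seen in 12 of 16 cluster genes and 8 of 16 other members, against 5336 of all 11982 genes. Centring each array on its median moves the median of all genes to -0.21 and those of the cluster and the other members to -0.1 and -0.18. With this centring 339 of all genes were called higher and 507 lower, against 384 and 188 without it, while the members called were 4 higher and 0 lower in both.

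**Figure D3:**
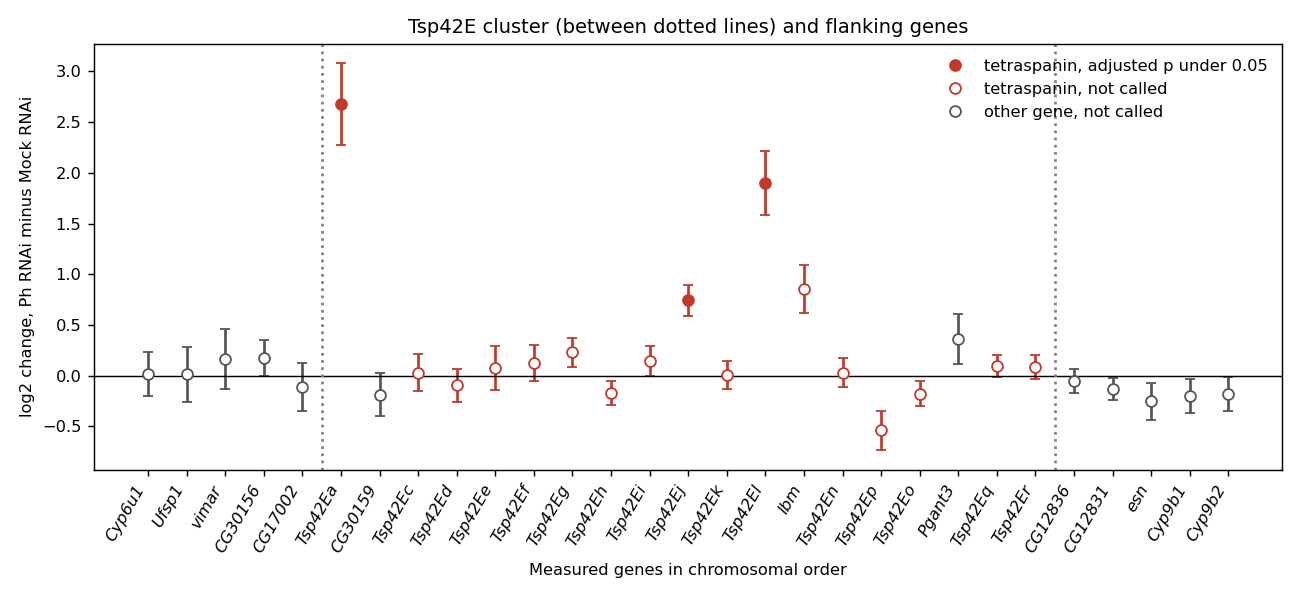
log2 change, Ph RNAi minus Mock RNAi (vertical axis, points with SE), of the measured genes of the *Tsp42E* cluster and 5 protein-coding genes on each side, in chromosomal order. Filled points passed the test. *Tsp42Ea* (2.67) and *Tsp42El* (1.9) stand apart from their neighbours, and the flanking genes lie between -0.25 and 0.18.

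Outside the cluster, *Tsp5D* was the 1 gene called. Its values were 10.7, 11.17 and 10.41 in Ph RNAi and 9.29, 9.14 and 9.77 in Mock RNAi. The groups did not overlap, and the increase was 2.58-fold (log2 change 1.37 ± 0.24, SE, adjusted p = 0.00773), called in all 13 alternatives with adjusted p-values of 0.00258 to 0.0402. *Tsp66E* had 10.41, 10.15 and 10.03 in Ph RNAi and 7.61, 9.59 and 9.34 in Mock RNAi. Mock RNAi replicate 1 lay well below the other Mock RNAi arrays, and with a log2 change of 1.35 ± 0.43 (SE) about as large as that of *Tsp5D* it did not pass the test (adjusted p = 0.121). Without that array its change was 0.73. *Tsp86D*, of the ADAM10-associated group, was at 8.64, 9.22 and 8.87 in Ph RNAi and 8.12, 8.05 and 8.42 in Mock RNAi, again without overlap or call (0.71 ± 0.24, SE, adjusted p = 0.14).

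The remaining members with a signal in BG3 cells, *Tsp3A*, *Tsp39D*, *Tsp96F* and *Tsp97E*, had log2 changes from -0.21 for *Tsp3A* to 0.27 for *Tsp97E* (SE 0.2 to 0.39) and overlapping arrays. The signs of *Tsp39D* (-0.32) and *Tsp96F* (-0.14) turned without Mock RNAi replicate 1. That array held the lowest Mock RNAi value for 7 of the 12 members in the upper mode in Mock RNAi, against 38.5% of all genes in the upper mode there. The 9 members outside the cluster in the lower mode in BG3 cells had changes from -0.23 for *Tsp42A* to 0.07 for *Tsp2A*, and none passed the test.

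Some markers of other cell types moved between the BG3 groups. Of 6 glia markers 4 were higher and 0 lower. These were *repo* (log2 change 7.1), *nrv2* (1.59), *loco* (1.34) and *Gli* (1.78). Negative changes without a call were seen for *moody* (-0.09) and *wrapper* (-0.89, adjusted p = 0.126). The summed level of the 6, as the log2 of the summed linear values, was 13.5 to 13.7 in Ph RNAi and 12 to 12.4 in Mock RNAi. *nrv2* had the highest mean of the list in both groups, 12.69 in Ph RNAi and 11.1 in Mock RNAi. Of 6 hemocyte markers *He* was higher, with 3.33, 4.76 and 7 in Ph RNAi and 1.93, 1.82 and 1.77 in Mock RNAi. Its Ph RNAi arrays were far apart (SD 1.85), and replicate 1 lay below the boundary of the modes. The summed level of the hemocyte list was 9.9 to 10.9 in Ph RNAi and 10.4 to 11.3 in Mock RNAi, and *Hml* and *NimC1* stayed in the lower mode. *srp* and *Pxn* were in the upper mode in both BG3 groups and *eater* in Mock RNAi only. The log2 changes were -0.7 for *srp*, 0.03 for *Pxn* and -0.72 for *eater*, and none of them was called. Of 5 neural precursor markers *pros* was higher, with 7.02, 8.33 and 8.51 in Ph RNAi and 1.61, 1.48 and 1.18 in Mock RNAi. Of 4 wing disc markers 1 was higher and 0 lower, and their summed level was 5.06 to 6.16 in Ph RNAi and 3.95 to 3.99 in Mock RNAi. This was *nub*, with 4.97, 4.27 and 5.6 in Ph RNAi and 2.34, 1.55 and 1.68 in Mock RNAi (8.5-fold, adjusted p = 0.000327), while *vg* (log2 change 0.77, adjusted p = 0.0889) and *ap* (0.58, adjusted p = 0.162) did not pass. *nub* was also the 1 of 5 midgut epithelium markers called, and that list summed to 5.46 to 6.24 in Ph RNAi and 4.66 to 4.7 in Mock RNAi. The part of these cell types in the tetraspanin changes was not tested, and in bulk RNA fewer cells of a type and less RNA per cell cannot be told apart.

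Known partners of tetraspanins were measured alongside. Of 4 ADAM and Notch processing genes none was called by limma or had an unadjusted p under 0.05, with *kuz*, the fly ADAM10, at 11.25, 11.04 and 11.68 in Ph RNAi and 10.14, 11.2 and 11.05 in Mock RNAi (log2 change 0.53 ± 0.27, SE). *Kul* and *Tace*, the other ADAM genes of the list, were in the lower mode. The smooth septate junction partners of *Tsp2A*, *Ssk*, *mesh* and *hoka*, were in the lower mode in every group, as was *Tsp2A* itself, and none was called (0 at an unadjusted p under 0.05). Of 7 integrin genes 1 was higher and 0 lower. This was *scb*, an alpha subunit, at 10.16, 10.02 and 10.92 in Ph RNAi and 8.6, 9.17 and 8.94 in Mock RNAi (2.76-fold, adjusted p = 0.00828). The beta subunit gene *mys* (log2 change 1.03 ± 0.28, SE, adjusted p = 0.0735) and the alpha subunit gene *if* (1.1 ± 0.36, adjusted p = 0.13) did not pass.

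Of 9 genes of vesicle formation 1 was higher and 1 lower. *ALiX*, an ESCRT-associated protein of endosomes, was 2.36-fold higher, with 9.36, 9.33 and 10.01 in Ph RNAi and 8.82, 8.21 and 7.96 in Mock RNAi (adjusted p = 0.0315). It was called in 7 of 13 alternatives, and lost with median centring (0.0556), with no variance trend (0.0591) and on leaving out Ph RNAi replicate 1 (0.0539) or 3 (0.101) or Mock RNAi replicate 2 (0.113) or 3 (0.142). *Rab27*, a small GTPase of vesicle docking, had 3.42, 3.31 and 3.15 in Ph RNAi and 4.61, 4.25 and 4.36 in Mock RNAi, 2.16-fold lower and below the boundary of the modes in Ph RNAi (adjusted p = 0.0198). That call was kept in 9 of 12 alternatives and lost on leaving out Ph RNAi replicate 3 (0.0846) or Mock RNAi replicate 2 (0.0501) or 3 (0.0707).

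Wing discs and Mock RNAi cells shared most of the members with a signal and differed for *Tsp42Ed*, *Tsp5D* and *Tsp74F*. The arrays also differed in a sign of RNA quality, the log2 signal of the actin control probe sets at the 3′ end minus that at the 5′ end, which was 3.12 to 3.34 in wing disc and 1.73 to 2.26 in Mock RNAi without overlap (1.38 to 2.06 in Ph RNAi), and its part in the rank differences was not tested. A member was counted where the ranks of the 3 wing disc arrays and the 3 Mock RNAi arrays did not overlap and their means differed by at least 20 percentile points, and no p-value was attached, since 3 against 3 arrays cannot give an exact two-sided permutation p under 0.1. By this count 5 members ranked higher in wing disc, against 7.21% of all genes, and 3 ranked lower, against 6.4%. Of the 5 ranked higher only *Tsp74F* was in the upper mode in either group. Ranks within the lower mode reflect small differences of weak signals, and among the 13 members in the upper mode in any group 1 ranked higher and 3 ranked lower, against 8.95% and 7.18% of all genes in the upper mode in wing disc or Mock RNAi.

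*Tsp42Ed* had the largest rank difference of the family. It stood at percentiles 28.3, 14.3 and 10 in wing disc, against 95.1, 94.8 and 94 in Mock RNAi, 77.1 points lower. Its log2 values of 0.63, 0.47 and 0.42 in wing disc were at the bottom of the scale. *Tsp42Ee*, the next gene along the chromosome, was near the top of the percentile scale in both, where a rank difference has little room to appear, at percentiles 97.6, 98.5 and 97.8 in wing disc and 97.6, 99.1 and 99 in Mock RNAi. *Tsp42Ef* ranked at 78, 78.7 and 77.6 in wing disc and 92.4, 90.8 and 91.9 in Mock RNAi, without overlap, as for 62.1% of all genes, but by less than 20 points.

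*Tsp42Ea* ran the other way and was at percentiles 83.7, 84.1 and 86.9 in wing disc, against 62.4, 71.2 and 65.4 in Mock RNAi, a difference of 18.6 points. With 81.6, 90.9 and 86.2 the Ph RNAi arrays spanned the wing disc ranks. *Tsp42El* ranked at 52.4, 52.1 and 52.5 in wing disc, close to the boundary of the modes, and at 55.3, 57 and 54.2 in Mock RNAi, while Ph RNAi arrays were above both at 63.2, 62.3 and 62.9. *lbm* and *TM4SF*, the tetraspanin genes with other names, were in the upper mode in both BG3 groups and in the lower mode in wing disc, with log2 values of 1.36, 1.4 and 1.32 and of 1.43, 1.37 and 1.23 in wing disc. *TM4SF* was at 8.4, 8.43 and 8.37 in Ph RNAi and 7.86, 8.03 and 8.2 in Mock RNAi, without passing the test (adjusted p = 0.441).

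Outside the cluster *Tsp74F* and *Tsp5D* differed in opposite directions. *Tsp74F* had percentile ranks of 66.6, 69.9 and 75 in wing disc and 20.4, 17.2 and 25.7 in Mock RNAi, with log2 values of 5.94, 6.26 and 6.76 in wing disc. It was in the lower mode in Ph RNAi as well, at 1.98, 1.6 and 1.84 on the log2 scale, against 1.83, 1.77 and 1.88 in Mock RNAi. *Tsp5D* ranked at 38.2, 43.4 and 38.4 in wing disc and 82.8, 81.4 and 86.2 in Mock RNAi. *Tsp3A*, of the ADAM10-associated group, was at 55, 54.7 and 55.4 in wing disc and 76.2, 77 and 79.5 in Mock RNAi, 22.5 points lower, which was 17.2 points when ranks were taken over all probe sets. *Tsp86D* of the same group was close behind, at 54.7, 55.1 and 55.7 in wing disc and 72.9, 72.3 and 75.6 in Mock RNAi, and *Tsp26A* was in the lower mode in both.

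The members that ranked higher in wing disc within the lower mode were *Tsp26A* (36.7, 40.6 and 40.8 in wing disc against 4.1, 10.2 and 21.8 in Mock RNAi), *Tsp68C* (43.7, 43.8 and 46.8 against 20.8, 7.8 and 13.2), *Tsp42Ei* (49.9, 51.6 and 51.4 against 39.7, 32.2 and 12) and *Tsp42Ej* (48.6, 48.5 and 47.7 against 8.8, 34.5 and 24.8). *Tsp42Ej* no longer met the 20 points without Mock RNAi replicate 1, and *Tsp42Ei* without Mock RNAi replicate 3. The other upper-mode members, *Tsp39D*, *Tsp66E*, *Tsp96F* and *Tsp97E*, ranked between 72.8 and 84.5 in wing disc and between 65.2 and 91.7 in Mock RNAi, and each differed by less than 20 points. The median percentile rank was 42.2 in Ph RNAi, 44.1 in wing disc and 35.8 in Mock RNAi for the cluster, and 33.4, 44.3 and 34.1 for the other members. These medians lie in the lower mode and describe genes with little signal.

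The wing disc arrays differed from one another in markers of fat body, a tissue that can adhere to dissected discs. *Lsp2*, a larval storage protein of fat body, was at 8.71, 5.68 and 2.34 in wing disc replicates 1, 2 and 3, and the lipoprotein gene *apolpp* at 6.98, 3.27 and 1.1. *Tsp42Ek* had 2.69, 1.09 and 0.67 and *Tsp42Ep* 2.41, 1.3 and 0.85 in the same arrays, with replicate 1 highest and replicate 3 lowest as for the fat body genes. That order also held, over smaller ranges, for *Tsp2A*, *Tsp42A*, *Tsp42Ed*, *Tsp42Ej*, *Tsp42Eo*, *Tsp42Eq* and *Tsp97E*. The remaining members had other orders. Replicate 1 was lowest for *Tsp42Ea*, *Tsp42Ec*, *Tsp42Ee*, *Tsp42Eh*, *Tsp42Ei* and *Tsp42Er* in the cluster. Outside the cluster it was lowest for *Tsp26A*, *Tsp29Fb*, *Tsp33B*, *Tsp47F*, *Tsp66E*, *Tsp68C*, *Tsp74F*, *Tsp86D* and *Tsp96F*. How many of all genes share the order was not counted. The range over the wing disc arrays was 2.02 for *Tsp42Ek* and 1.56 for *Tsp42Ep*, larger than that of 99.8% and 99.6% of all genes, and both remained in the lower mode. Whether fat body RNA has a part in these values was not tested. The wing disc values of the members in the upper mode there ranged over 0.08 for *Tsp42Ef* to 0.82 for *Tsp74F*, whose highest value was in replicate 3. Without wing disc replicate 1 *Tsp42Ed* was 82.5 points lower than in Mock RNAi and *Tsp74F* 51.3 points higher.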

How the data were processed

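Expression was measured in 9 samples with Affymetrix Drosophila Genome 2.0 arrays from 200 ng of RNA each. The authors deposited GCRMA output on the log2 scale, 1 value for each probe set and array, and the GCRMA version and settings are not given in the sources used here. GCRMA corrects background from probe sequence, equalizes arrays and summarizes probes, and it narrows differences among weak signals. Of 18952 rows, 183 control rows and 1 blank row were left out. The platform annotation gave 13647 of 18768 probe sets 1 symbol, 402 several and 4719 none. Of the 13647, 13544 matched RefSeq (Release 6 plus ISO1 MT), which changed 0 symbols. For 1094 genes with several probe sets the highest mean over the 9 arrays was used. The number of arrays limits the precision.

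Ph RNAi and Mock RNAi were compared over 11982 genes with limma 3.58.1 (lmFit, eBayes with trend) in R 4.3.3, two-sided, with no filter, called at a Benjamini-Hochberg adjusted p under 0.05. SE denotes limma's moderated standard error. Simulated data with known changes served to test the fit. The changes were placed only in genes with a strong Mock RNAi signal, and weaker genes such as *Tsp42Ej* and *Tsp42El* were not covered. Wing disc arrays stayed out of the fit. Members and lists (partners, marker genes, 5 flanking genes a side) were chosen with earlier results of these data known. Values of each array are given for called members, cluster members in the upper mode and members counted by rank. *Tsp66E*, *Tsp86D*, *Tsp42Ek* and *Tsp42Ep* were named after their values were seen. Alternatives were quantile normalization, median centring, means of probe sets, every probe set, no trend, a robust prior, upper-mode genes only, a replicate block, other rank settings and leaving out each array.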

Additional observations from a re-analysis of the deposited data

How the results depend on the processing

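The number of members called higher in Ph RNAi was 4, with 3 to 4 when single arrays were left out (2 to 3 in the cluster and 1 outside it), and no member was called lower by limma in any of these alternatives. Across the log2 changes of the 13 members tested by name, signs turned only for members without a call. Median centring gave -0.11 for *Tsp42Ee*, -0.057 for *Tsp42Ef* and -0.045 for *Tsp96F*. Leaving out single arrays gave -0.32 to 0.48 for *Tsp39D*, -0.23 to 0.24 for *Tsp42Ee* and -0.14 to 0.34 for *Tsp96F*, in each case lowest without Mock RNAi replicate 1 and highest without Mock RNAi replicate 3. The same-numbered Ph RNAi and Mock RNAi arrays deviated together in replicates 1 and 2 (r = 0.16 each) and not in replicate 3 (r = -0.17), so the numbers were not taken as pairs. With the replicate block the members called outside the cluster were 2, *Tsp66E* being added (adjusted p = 0.0233), and 3 in the cluster. Median centring moved the median change to -0.10 in the cluster, -0.18 in the other members and -0.21 over all genes, through its construction. Leaving out single arrays gave 0.078 to 0.11 for the cluster, -0.024 to 0.047 for the other members and -0.035 to -0.024 for all genes. The number of all genes called lower, 188 in the fit reported, was 507 with median centring and 88 to 158 when single arrays were left out.

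In wing disc against Mock RNAi, a difference of 30 points in place of 20 left 2 members higher (0 in the cluster). It left 2 lower, *Tsp42Ed* in the cluster and *Tsp5D* outside it. Counting only upper-mode genes, a choice made after the data were seen, left 1 higher, 0 of them in the cluster and 1 outside it. Leaving out single arrays gave 4 to 6 higher and 3 to 4 lower in all, with 1 to 3 higher in the cluster (1 without Mock RNAi replicate 1) and 2 to 3 lower outside it. Ranks over all probe sets, which add unnamed probe sets, raised the median ranks to 52.1 in Ph RNAi, 54.8 in wing disc and 43.8 in Mock RNAi for the cluster, and to 41.2 in Ph RNAi and 55.7 in wing disc for the other members. Leaving out single arrays, the cluster's median rank was 40.3 to 43.2 in Ph RNAi, 41.2 to 48.1 in wing disc and 34.2 to 37.4 in Mock RNAi.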
